A study of Mus musculus with 4 samples.

Results

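The genes described here are the T-box genes of mesoderm and heart, Tbx1, Tbx2, Tbx3, Tbx4, Tbx5, Tbx6 and Tbx20. These 7 genes were taken by name from 19616 genes listed in any of 3 single-cell libraries of gastrulating mouse embryos. The tables of the streak stages (MS-LS) and of the bud stages (OB-EB) listed 5 of the 7 genes, and the table of the early head fold stage (EHF) listed all 7. Tbx4 and Tbx5 were unlisted at MS-LS and OB-EB.

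All embryos carried the genotype TnEGP-CreERT2/+; R26Rtdtomato/R26Rtdtomato, in which a tamoxifen-inducible Cre recombinase made from the T locus switches on the red reporter tdTomato. MS-LS embryos were dissected at E6+21h after tamoxifen by oral gavage at E6+5h. OB-EB embryos were dissected at E7+3h after tamoxifen at E6+21h, and EHF embryos at E7+14h after tamoxifen at E7+7h. Cre acts only in cells that express T, every group received tamoxifen, and no group lacked Cre. Each stage was 1 library made from unsorted cells of pooled whole embryos, so that stage, dissection and library cannot be told apart.

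T-box proteins are transcription factors that bind DNA through a shared domain, the T-box, named after T (Brachyury). T and Eomes act in the primitive streak, through which cells ingress to form mesoderm and endoderm. Tbx6 directs streak progeny to the presomitic, paraxial fate and holds back neural genes. Tbx5 and Tbx20 act with Nkx2-5 and GATA factors in the first heart field, the source of the cardiac crescent and of much of the left ventricle. Tbx1 acts in pharyngeal and head mesoderm and in the second heart field that builds the outflow tract. Tbx2 and Tbx3 are repressors that later restrain chamber genes in the atrioventricular canal, and Tbx4 is known for its place in the allantois and hindlimb.

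In GRCm38 the genes lie as 2 linked pairs and 3 single loci. Tbx3 lies on chromosome 5 at chr5:119670669-119684724 (+ strand), 147943 bases upstream of Tbx5 at chr5:119832668-119885219 (+). Tbx2 lies at chr11:85832551-85841948 (+), 44473 bases upstream of Tbx4 at chr11:85886422-85916097 (+). Tbx6 lies at chr7:126781483-126785560 (+), Tbx20 at chr9:24718138-24774303 (-) and Tbx1 at chr16:18580979-18590671 (-). The start of Tbx3 overlaps that of the antisense gene Tbx3os1. Since the sources used here do not say whether the counting used strand, a small part of the reads of either gene cannot be assigned with certainty.

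The 250 bases before the start of Tbx6 and of Tbx20 are shown because the results on paraxial mesoderm turn on Tbx6 and those on heart field and extraembryonic mesoderm on Tbx20. Sequences are from RefSeq (GRCm38.p6), 5′ to 3′ on the strand of the gene, at chr7:126781233-126781482 (+) for Tbx6 and chr9:24774304-24774553 (-) for Tbx20. Capitals mark a TATAAA element, which ends upstream of the Tbx6 start and begins 43 bases before it.
Tbx6: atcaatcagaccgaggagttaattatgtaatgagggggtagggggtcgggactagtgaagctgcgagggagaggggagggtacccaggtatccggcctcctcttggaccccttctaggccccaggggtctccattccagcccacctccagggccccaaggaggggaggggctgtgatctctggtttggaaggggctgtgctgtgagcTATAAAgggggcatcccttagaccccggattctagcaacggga
Tbx20: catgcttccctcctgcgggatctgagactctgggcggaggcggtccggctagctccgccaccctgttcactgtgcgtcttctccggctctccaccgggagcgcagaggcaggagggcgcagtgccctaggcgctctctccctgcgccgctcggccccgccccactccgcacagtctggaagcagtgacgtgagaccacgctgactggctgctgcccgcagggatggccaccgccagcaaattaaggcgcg
The windows searched ran from 250 bases before to 50 bases after the start, on both strands. TATAAA was held by 13.6% of 32851 promoters of this length, and it was added to the search after the sequences had been seen. The element GGCGCC, a BMP-SMAD motif held by 11.9% of promoters, began 8 bases after the Tbx20 start, beyond the printed stretch. The T-box site GGTGTGA (3.98% of promoters), the GATA motif AGATAA (11.2%) and the TCF/LEF motif CTTTGA (16.003%) were in neither window. GC content was 57.7% for the Tbx6 window and 68.3% for the Tbx20 window, beside a median of 52.7% over all promoters.

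The libraries held 3635 (MS-LS), 3994 (OB-EB) and 3494 (EHF) cells, with 17966956, 12181436 and 20376539 unique molecular identifiers (UMIs, counts of captured transcripts) and medians of 4251, 2620.5 and 5584 UMIs per cell. The pair of EHF tables held the same counts in all 65128160 places and was counted as 1 library. Between 12 and 18 cell barcodes were shared by each pair of libraries. With 1 library per stage no test between stages or cell types was possible, and intervals are exact 95% intervals that cover counting error only. A level in CPM is the number of UMIs of a gene per 1000000 UMIs of all genes in the same cells. Cells were clustered and the clusters named from marker genes with all T-box genes and the reporter held out, so the names "FHF-like" and the like do not rest on the genes described. Clusters that met no name were left unnamed.

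Over whole libraries, Tbx1 and Tbx6 were highest at EHF, Tbx20 at OB-EB, and Tbx3 at MS-LS by a small margin. Tbx6 was at 2.17 CPM at MS-LS (39 UMIs in 37 cells), 5.83 CPM at OB-EB (71 UMIs in 68 cells) and 22.5 CPM at EHF (459 UMIs in 305 cells). Its intervals did not overlap between any of the libraries, and the log2 ratio was 1.43 (0.84 to 2.03) from MS-LS to OB-EB and 1.95 (1.59 to 2.33) from OB-EB to EHF. Tbx20 was at 8.18 CPM (147 UMIs in 130 cells), 18.7 CPM (228 UMIs in 193 cells) and 15.4 CPM (313 UMIs in 244 cells). It was thus higher at OB-EB than at MS-LS, at a log2 ratio of 1.19 (0.89 to 1.50), and differed little from OB-EB to EHF, at -0.29 (-0.54 to -0.03). Tbx3 was at 19.98 CPM (359 UMIs in 280 cells), 15.7 CPM (191 UMIs in 174 cells) and 14.97 CPM (305 UMIs in 242 cells). Its log2 ratio was -0.35 (-0.61 to -0.09) from MS-LS to OB-EB and -0.07 (-0.33 to 0.20) from OB-EB to EHF.

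The other 4 genes were sparse. Tbx1 had 5 UMIs at MS-LS and 3 UMIs at OB-EB against 70 UMIs in 57 cells at EHF. In CPM these were 0.278, 0.246 and 3.44, a log2 ratio of 3.80 (2.20 to 6.11) from OB-EB to EHF. Tbx2 had 11, 8 and 19 UMIs, or 0.612, 0.657 and 0.932 CPM, with intervals that overlapped throughout. At EHF, Tbx5 had 22 UMIs in 20 cells (1.08 CPM) and Tbx4 had 8 UMIs in 7 cells (0.393 CPM).

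**Figure D1:**
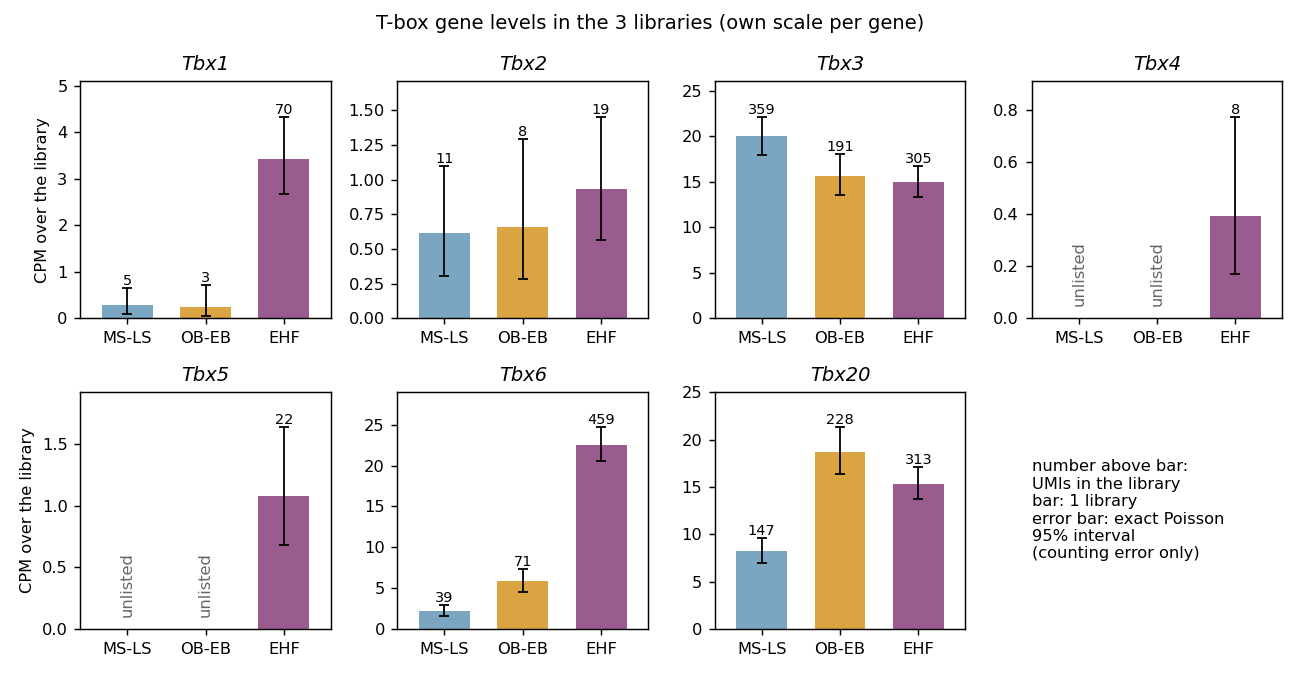
Level of each T-box gene in the 3 libraries, in CPM on a scale of its own (bars, 1 library each), with exact Poisson 95% intervals (error bars) and the UMIs above each bar. Tbx6 climbs from 39 to 459 UMIs, Tbx20 peaks at OB-EB, and Tbx4 and Tbx5 are listed at EHF only.

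From MS-LS to OB-EB, Tbx6 and Tbx20 passed a 2-fold difference upward among 3 members with at least 20 UMIs over both libraries, beside 7.23% of 13273 genes. From OB-EB to EHF, Tbx1 and Tbx6 did so among 5 members, beside 18.2% of 14064 genes, and from MS-LS to EHF the same pair did so, beside 16.9% of 14306 genes. Tbx1 entered these counts through its EHF level alone. No member was 2-fold lower, where the shares of all genes were 4.73%, 7.1% and 5.52%. The median gene shifted by -0.05, 0.36 and 0.31 on the log2 scale in these contrasts, so that the Tbx3 and Tbx20 ratios from OB-EB to EHF lie below that of the median gene. Within cells of classes named as mesoderm the Tbx6 ratio from MS-LS to OB-EB was -0.21 instead of 1.43, and the Tbx20 ratio from OB-EB to EHF was -1.23 instead of -0.29, although unnamed mesodermal clusters were left out of that comparison. In whole-library values, more cells of a type and more RNA per cell cannot be told apart.

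At EHF most of these genes were highest in a mesodermal population. Tbx5 was highest in the FHF-like cells, Tbx1 in the anterior paraxial mesoderm-like cells and Tbx6 in the paraxial and caudal mesoderm-like cells. Tbx20 was in FHF-like and extraembryonic (Exe) mesoderm-like cells and an unnamed cluster, Tbx4 in Exe mesoderm-like cells, and Tbx3 in visceral endoderm and Exe mesoderm, while Tbx2 was too sparse to place. For the 4 members with at least 50 UMIs (Tbx1, Tbx3, Tbx6 and Tbx20) the highest named class was over 4-fold above the other cells, beside 19.7% of 11171 genes with at least 50 UMIs, whose median log2 ratio was 1.11. Tbx1 met the limit of 50 UMIs only through its highest class, with 25 UMIs in all other cells. Tbx2, Tbx4 and Tbx5 fell outside that comparison, and for Tbx2 the ratio of 2.87 (0.83 to 4.52) rested on 4 UMIs in Exe mesoderm-like cells.

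The first heart field genes come first. Tbx5, required for the left ventricle and atria, had 16 of its 22 UMIs in the 95 FHF-like cells. Its level there was 23.0 CPM (13.2 to 37.4), against 0.305 CPM in all other cells, a log2 ratio of 6.24 (4.81 to 7.88). No other class held more than 2 Tbx5 UMIs. Tbx20, a repressor and activator needed for chamber growth, was at 67.6 CPM (49.7 to 89.9; 47 UMIs) in FHF-like cells. It was as high or higher outside the heart field, at 79.7 CPM (60.4 to 103; 57 UMIs) in Exe mesoderm-like cells and 97.7 CPM (77.1 to 122; 77 UMIs) in unnamed cluster 17. Cluster 17 was led by Pmp22, Stard8 and the smooth muscle genes Acta2 and Tagln, and its best marker score was that of Exe mesoderm. These 3 levels of Tbx20 did not differ from their neighbours in rank beyond counting error. The next in order were endothelium-like cells at 27.3 CPM, 1.31 (0.44 to 2.25) below FHF-like cells on the log2 scale, and unnamed cluster 19 at 26.9 CPM, led by Gap43, Wnt6 and Tfap2a. Tbx5 set FHF-like cells apart from cluster 17 at a log2 ratio of 4.18 (1.50 to 9.57), where Tbx20 gave -0.53 (-1.09 to 0.01).

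Tbx1, whose loss impairs the pharyngeal arches and outflow tract, had 45 of its 70 UMIs in the 187 anterior paraxial mesoderm-like cells. Its level was 40.7 CPM (29.7 to 54.4) there and 1.30 CPM elsewhere, a log2 ratio of 4.97 (4.23 to 5.74). The ratio was 4.13 at a finer clustering resolution and 3.55 with another clustering method. The class was led by Tcf15, Ppp1r1a and Alx1, genes of head and paraxial mesoderm, and no cluster took the name of pharyngeal mesoderm. FHF-like cells held 2 Tbx1 UMIs (2.88 CPM), lower by a log2 ratio of -3.82 (-6.91 to -1.88), while the anterior class held 1 UMI each of Tbx5 and Tbx20. Shallow cluster 4 (a median of 1790 UMIs per cell) ranked next for Tbx1, with 7 UMIs at 19.8 CPM, an interval that met that of the anterior class.

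Tbx6 reached 182 CPM (156 to 212; 172 UMIs) in the 178 paraxial mesoderm-like cells. The study renamed its own paraxial mesoderm cluster pSHF (posterior second heart field), with Raldh2 (Aldh1a2), Hoxb1 and Tbx6 as markers. Of these only Aldh1a2 was among the markers that named the class here. This class was led by Aldh1a2, Meox1 and also the presomitic genes Dll1 and Dll3. Caudal mesoderm-like cells followed at 103 CPM (88.3 to 120; 166 UMIs), and unnamed cluster 22, led by Cdx1 and Nkx1-2, at 59.7 CPM (35 UMIs). The class steps were 0.82 (0.50 to 1.14) and 0.79 (0.26 to 1.36) on the log2 scale. The caudal class pooled unlike clusters, however, with cluster 13 at 188 CPM (156 to 225), which overlapped the paraxial class, and cluster 6 at 45.9 CPM (33.4 to 61.7), which overlapped cluster 22, so that the order does not hold for its clusters. Node and notochord-like cells (33.3 CPM), clusters 4 and 10 and caudal epiblast-like cells (23.9 CPM) came next and did not differ from each other in rank order. Anterior paraxial mesoderm-like cells held 10 Tbx6 UMIs (9.04 CPM), and FHF-like cells 5 UMIs (7.19 CPM).

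For Tbx3 the highest class was endoderm. Visceral and Exe endoderm-like cells had 127 of its 305 UMIs, at 56.7 CPM (47.3 to 67.5), against 9.81 CPM elsewhere. Exe mesoderm-like cells followed at 50.4 CPM (35.3 to 69.7), then cluster 17 at 31.7 CPM, cluster 19 at 22.4 CPM and caudal mesoderm-like cells at 21.2 CPM, and no step in this order exceeded counting error. In FHF-like cells Tbx3 had 7 UMIs (10.1 CPM), lower than in Exe mesoderm-like cells by a log2 ratio of 2.32 (1.13 to 3.73). Tbx2 was spread thinly, with 5 UMIs each in caudal mesoderm-like and visceral endoderm-like cells and 4 UMIs in Exe mesoderm-like cells. Tbx4 had 7 of its 8 UMIs in Exe mesoderm-like cells (9.79 CPM; 3.94 to 20.2). Those cells were led by Pitx1, Foxf1 and Hox genes, and allantois was their next best marker score.

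Trophoblast cells also held Tbx20 and Tbx3. In 514 Exe ectoderm-like cells Tbx20 was at 14.96 CPM (53 UMIs) and Tbx3 at 9.88 CPM (35 UMIs), against 2.46 CPM and 1.97 CPM in epiblast-like cells. The log2 ratios were 2.604 (1.29 to 4.28) and 2.33 (0.84 to 4.28). Within this class Tbx3 was at 18.2 CPM in cluster 0, led by Mt2, Fabp3 and Ascl2, and at 5.14 and 2.92 CPM in clusters 9 and 11, both led by Elf5. Tbx20 was at 20.9, 15.4 and 6.81 CPM in these clusters, and clusters 0 and 9 differed by less than counting error, at a log2 ratio of 0.44 (-0.49 to 1.43). Erythroid-like cells, which should lack these genes, held no UMI of any member but Tbx6 (2 UMIs), where 3 UMIs would be 5.37 CPM. Epiblast-like cells in this library were led in part by neural genes.

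**Figure D2:**
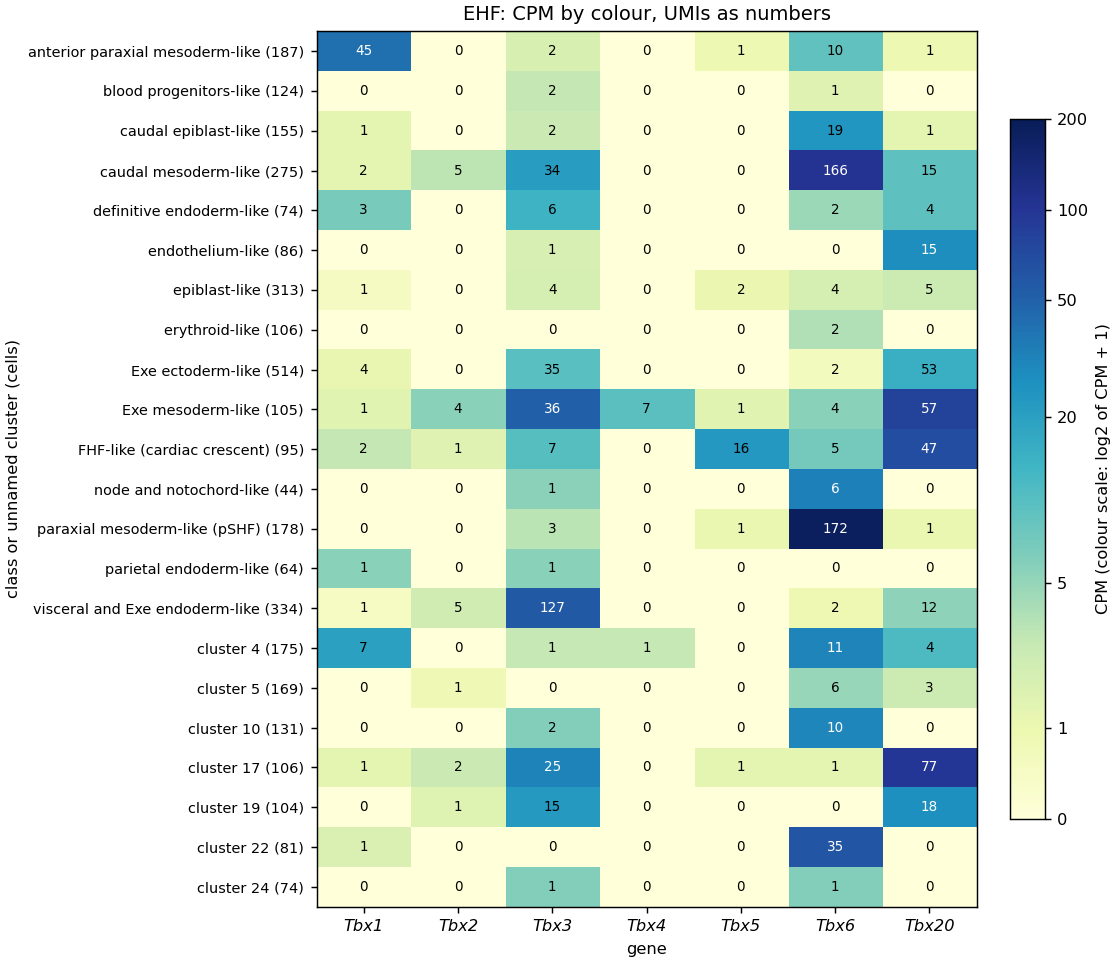
UMIs (numbers) and CPM (colour, log2 of CPM + 1) of the 7 genes in each class or unnamed cluster of the EHF library, with cells per row in brackets. Tbx1, Tbx4, Tbx5 and Tbx6 each darken in 1 or a few mesoderm rows, while Tbx3 and Tbx20 extend to extraembryonic rows.

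As shares of cells, 36.8% of FHF-like cells (27.2 to 47.4) had a Tbx20 UMI and 14.7% (8.30 to 23.5) had a Tbx5 UMI. In erythroid-like cells both shares were 0 of 106, with exact binomial (Clopper-Pearson) limits of up to 3.42%, at median depths of 6466 and 5141 UMIs. After each cell was thinned to 1500 UMIs the FHF-like shares were 12.6% (6.70 to 21.0) for Tbx20 and 3.16% (0.656 to 8.95) for Tbx5, with no cell left out of either class. Of paraxial mesoderm-like cells 53.4% (45.8 to 60.9) had a Tbx6 UMI, or 25.6% (19.3 to 32.7) after thinning, which left out 2 of 178 cells. For Tbx1, 18.2% (12.9 to 24.5) of anterior paraxial mesoderm-like cells had a UMI, or 5.88% (2.97 to 10.3) after thinning. The thinned intervals of Tbx5 and Tbx1 reached below the limit of erythroid-like cells, which lay at 3.42% after thinning too, and those of Tbx6 and Tbx20 did not.

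At the earlier stages Tbx3 was high in both endoderm and mesoderm. Visceral and Exe endoderm-like cells had 192 of 359 Tbx3 UMIs at MS-LS (56.4 CPM; 48.7 to 64.96) and 49 of 191 at OB-EB (40.7 CPM; 30.1 to 53.9), beside the 56.7 CPM of EHF. Exe mesoderm-like cells ranked first at OB-EB, at 55.2 CPM (57 UMIs), within counting error of the endoderm, and at MS-LS the mesodermal cluster 12 was at 41.1 CPM (53 UMIs). Within the visceral and Exe endoderm-like class at MS-LS the Tbx3 level was uneven. Cluster 5, led by Spink1 and Cd59a, was at 14.2 CPM (14 UMIs), against 65.7 CPM in cluster 4 (85 UMIs) and 82.6 CPM in cluster 13 (93 UMIs). Nascent mesoderm-like cells went from 42.2 CPM of Tbx3 at MS-LS to 17.5 CPM at OB-EB, a log2 ratio of -1.27 (-1.97 to -0.60). In the cells that the authors named Nascent Mesoderm the MS-LS level was 25.1 CPM (18.5 to 33.3), an interval that overlapped that of OB-EB (11.55 to 25.5), so the difference depended on the grouping. Endothelium-like cells held 12 Tbx3 UMIs at MS-LS (34.5 CPM) and 1 UMI at EHF (1.82 CPM), a log2 ratio of -4.24 (-9.66 to -1.49). This class may not hold the same cells at each stage, since blood progenitor-like and erythroid-like cells were named apart from it at EHF only. At OB-EB, unnamed cluster 13, whose best marker score was endothelium and next blood progenitors, held 8 Tbx3 UMIs (17.6 CPM).

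Tbx20 was at its highest in the Exe mesoderm-like cells of OB-EB, at 113 CPM (93.7 to 136; 117 of 228 UMIs), and lower in that class at EHF, by a log2 ratio of -0.51 (-0.99 to -0.04). That ratio leaves out EHF cluster 17, which also scored highest for Exe mesoderm and whose 97.7 CPM (77.1 to 122) overlapped the OB-EB level. Unnamed cluster 13, led by the blood and vessel genes Lmo2 and Fli1, was next in order at 30.8 CPM, and the Exe mesoderm-like cells exceeded it by a log2 ratio of 1.88 (1.07 to 2.79). At MS-LS, unnamed cluster 12, led by Lefty2, Cdh11 and Kdr, was highest for Tbx20 at 40.3 CPM (52 UMIs), above nascent mesoderm-like cells at 19.5 CPM (30 UMIs). Exe ectoderm-like cells had 7.16, 8.61 and 14.96 CPM of Tbx20 over the 3 stages, and the log2 ratio of EHF over MS-LS was 1.06 (0.32 to 1.85). Tbx3 in this class was at 2.28, 4.30 and 9.88 CPM, with a ratio of 2.12 (0.92 to 3.53). The class was made of different clusters at each stage. At EHF 27 of its 35 Tbx3 UMIs were in cluster 0, while the Elf5-led clusters 9 and 11 (5.14 and 2.92 CPM) were near the Elf5-led cluster 8 of MS-LS (3.87 CPM).

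**Figure D3:**
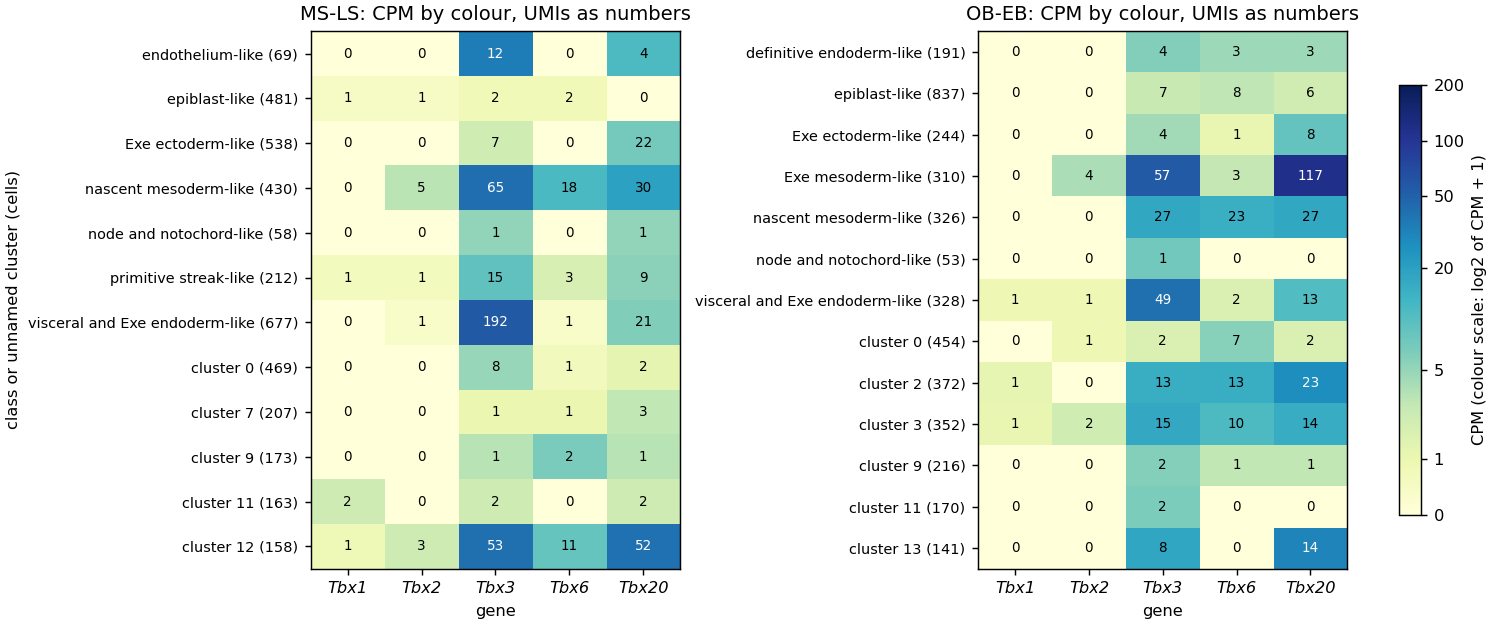
UMIs (numbers) and CPM (colour, log2 of CPM + 1) of the listed T-box genes in classes and unnamed clusters of the MS-LS (left) and OB-EB (right) libraries, with cells per row in brackets. Tbx3 is darkest in visceral endoderm and mesoderm rows, Tbx20 is darkest in Exe mesoderm-like cells of OB-EB (117 UMIs), and the Tbx1 and Tbx2 columns are near 0.

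In a pair of mesodermal populations per stage, chosen after their values were seen and defined in different ways, Tbx3 and Tbx20 differed in the opposite direction to Tbx6. At MS-LS, by the authors' cell names, the 212 LPM ExMesoderm cells had 73.9 CPM of Tbx3 and 53.9 CPM of Tbx20, against 25.1 and 17.8 CPM in 363 Nascent Mesoderm cells. The log2 ratios were 1.56 (1.01 to 2.12) and 1.60 (0.94 to 2.27). Tbx6 had 1 UMI in the former (1.06 CPM) and 28 UMIs in the latter (14.7 CPM), a log2 ratio of -3.79 (-9.15 to -1.20). At OB-EB, Exe mesoderm-like over nascent mesoderm-like cells gave 1.65 (0.97 to 2.37) for Tbx3, 2.69 (2.08 to 3.35) for Tbx20 and -2.36 (-4.74 to -0.64) for Tbx6.

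At EHF the pair was made of the clusters of the caudal mesoderm-like class. Cluster 13 had 188 CPM of Tbx6 (122 UMIs) and no UMI of Tbx3 or Tbx20. Cluster 6 had 45.9 CPM of Tbx6 (44 UMIs), 35.5 CPM of Tbx3 (34 UMIs) and 15.7 CPM of Tbx20 (15 UMIs). Tbx6 was thus higher in cluster 13, by 2.04 (1.53 to 2.57) on the log2 scale. With cluster 13 set to 3 UMIs, Tbx3 and Tbx20 were higher in cluster 6 by log2 ratios of at least 2.94 and 1.76. Cluster 13 expressed the presomitic genes Hes7 (162 CPM) and Dll1 (156 CPM) and the caudal genes Cdx1 (889 CPM) and T (600 CPM). In cluster 6 these genes were lower but present, at 32.4, 41.8, 203 and 212 CPM. Other genes did not follow this split. The caudal gene Cdx4 (67.9 against 7.72 CPM) and Mesp1 (229 against 34.0 CPM) were higher in cluster 6 than in cluster 13. Rspo3 was at 264 CPM in cluster 6 and 321 CPM in cluster 13. Cluster 6 expressed the lateral and extraembryonic mesoderm genes Hand1 (269 CPM) and Foxf1 (118 CPM) and the BMP target Msx1 (141 CPM), which in cluster 13 were at 6.17 CPM, 0 and 10.8 CPM. The Tbx6 level of cluster 13 differed from that of the paraxial mesoderm-like cells by less than counting error, at a log2 ratio of 0.05 (-0.30 to 0.39).

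Other pairs did not show this pattern. At MS-LS, nascent mesoderm-like cells over cluster 12 gave 0.04 (-0.51 to 0.59) for Tbx3 and 0.46 (-0.71 to 1.68) for Tbx6. At OB-EB, unnamed cluster 2 ranked first for Tbx6 (15.4 CPM) and held 27.2 CPM of Tbx20, above nascent mesoderm-like cells (17.5 CPM). At EHF, FHF-like over anterior paraxial mesoderm-like cells gave 6.23 (3.68 to 11.56) for Tbx20 and -0.33 (-2.23 to 1.35) for Tbx6.

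**Figure D4:**
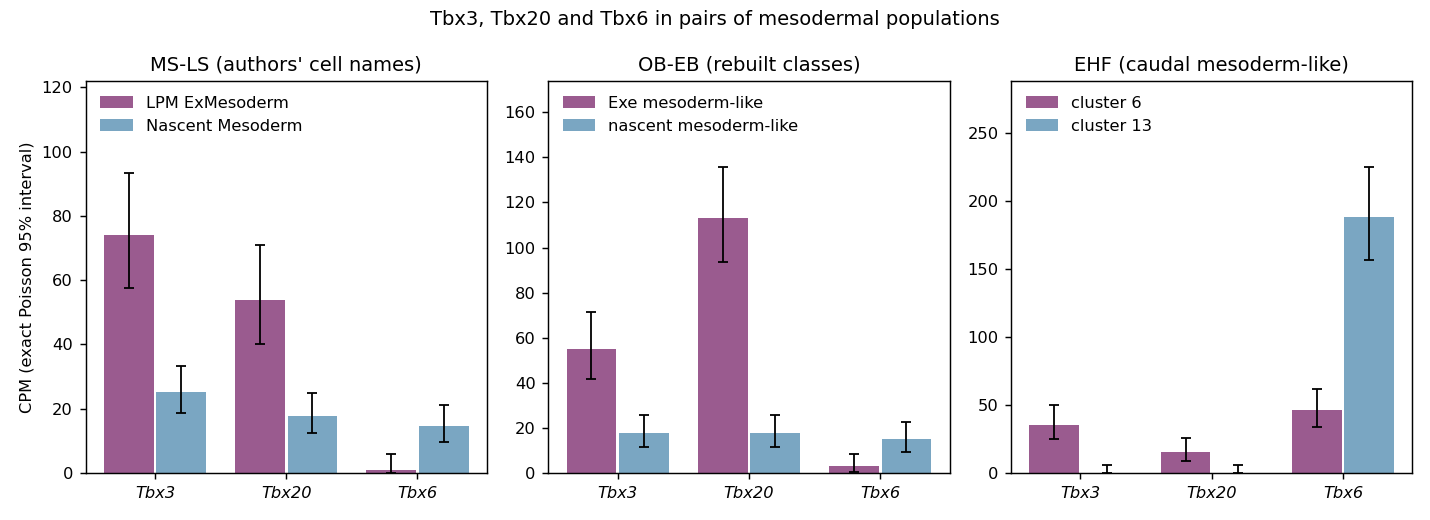
CPM of Tbx3, Tbx20 and Tbx6 in a selected pair of mesodermal populations per library (bars), with exact Poisson 95% intervals (error bars). In each panel the population with more Tbx3 and Tbx20 (purple) has less Tbx6, down to 0 UMIs of Tbx3 and Tbx20 in cluster 13 at EHF.

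Some cells held UMIs of more than 1 of the genes. At EHF, 48 cells held both Tbx3 and Tbx20, which is 19.8% of 242 Tbx3 cells and 19.7% of 244 Tbx20 cells, while 6.03% of cells without Tbx3 had Tbx20. The overlap was uneven, with 16 of 26 Tbx3 cells in Exe mesoderm-like cells and 5 of 96 in visceral and Exe endoderm-like cells also holding Tbx20. Both genes were together in 26 cells at MS-LS, of 280 with Tbx3 and 130 with Tbx20, and in 24 cells at OB-EB, of 174 and 193. Of 20 Tbx5 cells, 8 also held Tbx20, and all 8 were FHF-like. Tbx6 and Tbx20 met in 7 EHF cells (2.30% of Tbx6 cells and 2.87% of Tbx20 cells), while 7.43% of cells without Tbx6 had a Tbx20 UMI. Tbx6 cells held T in 200 of 305 cases (65.6%; 29.7% of 674 T cells), and 14.9% of cells without Tbx6 had T. Of 17 Tbx2 cells, 7 held Tbx3 and 7 held Tbx20. Cells with a UMI were deeper than the rest for Tbx3 (a median of 7772 UMIs), Tbx20 (7081) and Tbx5 (8000.5), against 5584 over all EHF cells, and the part of depth in these pairs was not tested.

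The reporter marks descendants of cells that expressed T after tamoxifen, and it was read here as cells with a tdTomato UMI. At EHF, 134 of 305 Tbx6 cells (43.9%; 38.3 to 49.7) had one, against 8.44% of the other cells. After thinning to 1500 UMIs the shares were 13.4% (9.77 to 17.8) and 3.56% (2.93 to 4.29). In Exe ectoderm-like cells, which do not pass through the streak, 5 of 514 cells (0.973%) had a reporter UMI at a median of 6923 UMIs, against a median of 5694 in Tbx6 cells. Tbx20 cells were at 6.97% (4.11 to 10.9), against 11.9% of the others, and at 3.69% against 4.51% after thinning. For Tbx3 the shares were 10.7% and 11.6%, and for Tbx1 10.5% and 11.6%. None of 20 Tbx5 cells had the reporter, which leaves an upper exact limit of 16.8%, and none of 7 Tbx4 cells did. Within the paraxial mesoderm-like class the shares were 52.6% (42.1 to 63.0) of Tbx6 cells and 45.8% (34.8 to 57.1) of the rest, with medians of 5694 and 4275 UMIs, and 12.6% and 19.8% after thinning. The intervals of both groups overlapped within that class, before and after thinning.

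**Figure D5:**
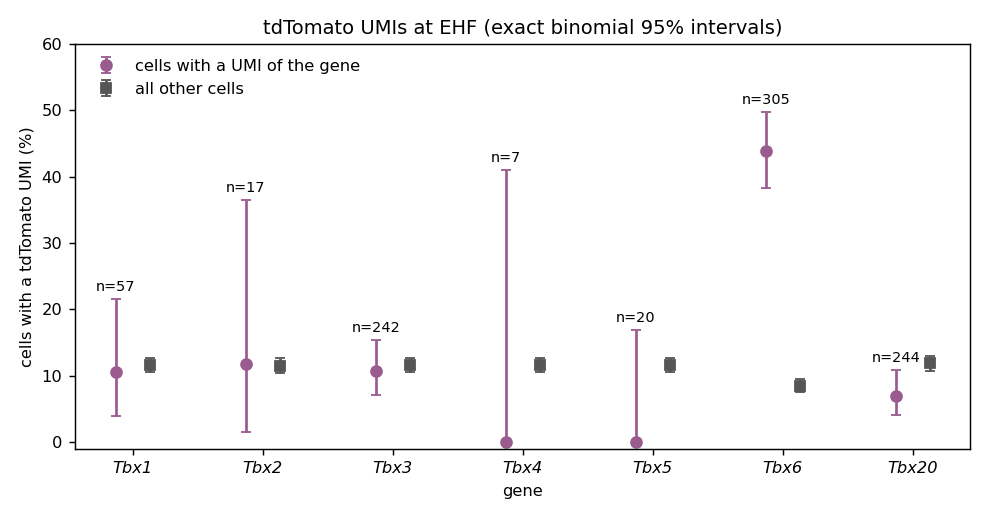
Share of EHF cells with a tdTomato UMI (%, unthinned) among cells with a UMI of each T-box gene (purple circles, n cells) and among all other cells (grey squares), with exact binomial 95% intervals. Tbx6 cells stand at 43.9%, apart from the 8.44% of other cells, and the other genes do not.

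The genes most like the members were ranked by Pearson correlation of log2(CPM + 10) over 61 clusters of the 3 libraries, among 12811 genes. For Tbx6 they were Hes7 (r = 0.89), Car3 (0.87) and Gal (0.85). For Tbx20 they were Frmd6 (0.81), Nrp1 (0.81) and Pmp22 (0.78), and for Tbx3 they were Prdm6 (0.76), Smad6 (0.74) and Sowahb (0.73). For Tbx1 they were Alx1 (0.79), Tcf15 (0.71) and Prrx2 (0.62). Clusters of a library share its depth and cells of origin, so these values are descriptions. Tbx2, Tbx4 and Tbx5 had too few UMIs to be ranked.

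The partners and targets of the members were read as lists, against all other EHF cells and on the log2(CPM + 10) scale. Unlike the members, these genes were open to the clustering. In FHF-like cells 7 of 8 cardiac partner genes were at least 2-fold higher, beside 0.922% of 13456 genes, with a list median of 2.18 (-0.04 over all genes). Mef2c led at 275 CPM (log2 4.18), with Nkx2-5, the cardiac homeobox gene, at 69.1 CPM (2.78), Smarcd3, a subunit of the chromatin remodeller that works with Tbx5, at 158 CPM (2.75), and Hand1 the exception at -0.61. Of the genes around Tbx6, 4 of 8 were at least 2-fold lower there, beside 2.31% of genes. Targets of later chamber and conduction tissue were mostly beyond reach. Gja5, Hcn4 and Bmp10 were unlisted, Nppa had 1 UMI in FHF-like cells, and only Gja1 of 7 genes had 20 UMIs in the library.

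In paraxial mesoderm-like cells 6 of 8 genes around Tbx6 were at least 2-fold higher, beside 1.17% of genes, with a median of 1.46. They included the Notch ligand Dll1 (2.91), the Wnt agonist Rspo3 (2.66) and the protocadherin Pcdh8 (2.55). Sox2, a neural gene, was lower at 9.55 CPM (-1.33), the only gene in 8 that was 2-fold lower, beside 2.34% of genes. The cells compared with included epiblast-like cells, and a link to Tbx6 was not tested. Sox2 was at 20.1 CPM (10.7 to 34.3) in caudal cluster 13 and at 8.35 CPM (3.61 to 16.5) in cluster 6. Tbx6 was higher in cluster 13 than in cluster 6. In caudal mesoderm-like cells 4 of the 8 were higher and 1 was lower, beside 0.795% and 1.92% of genes, and in visceral and Exe endoderm-like cells 5 were lower, beside 4.53%. BMP targets, the genes that answer to SMAD signalling, were at least 2-fold lower in the paraxial class for 4 of 7 genes, beside 2.34% of all genes. Id2 was at -3.46 there. In Exe mesoderm-like cells 4 of 7 BMP targets were at least 2-fold higher, beside 1.32% of genes, led by Msx2 (2.03) and Msx1 (1.96), while Id2 alone was 2-fold lower, at -1.63, beside 2.16% of genes. In cluster 17 the counts were 3 higher and 2 lower of 7, beside 2.49% and 2.47% of genes, and in visceral and Exe endoderm-like cells 2 were higher, beside 6.49%. In anterior paraxial mesoderm-like cells 6 of 7 genes of the pharyngeal Tbx1 pathway were at least 2-fold higher, beside 0.728% of genes. Foxc2 (2.54) and Foxc1 (2.27) led, and the ligand Fgf8 was at 56.9 CPM (1.02). Of 7 BMP targets 3 were lower there, beside 2.44% of genes. Of the T-box corepressors, 4 of 7 had 20 UMIs in the library, and Ripply2 was higher in paraxial mesoderm-like cells (28.6 CPM, 1.78).

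Of 10 other T-box genes, 7 were listed at EHF, and Tbx19, Tbx21 and Tbx22 were not. T was at 39.0, 96.5 and 89.2 CPM over the 3 stages and Eomes at 133, 57.5 and 14.9 CPM. Mga, a broadly expressed member, was at 45.4, 39.1 and 35.5 CPM, and Tbx18, Tbr1, Tbx10, Tbx15 and Tbx22 had at most 28 UMIs in any library.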

How the data were processed

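Whole embryos of 3 stages were dissociated and profiled by droplet single-cell RNA sequencing (10x Chromium 3′), 1 library per stage. The deposited tables hold counts, the UMIs per gene and cell that the authors obtained with Cell Ranger 3.0.2 on GRCm38 with a tdTomato sequence added, and they kept cells by genes, UMIs and mitochondrial share. All deposited cells were used. The genes and gene lists were chosen with earlier results of these data known, and the naming margin of 0.2 was also set after data had been seen.

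Cells were clustered in R 4.3.3 with Seurat 5.3.0 (2000 variable genes, 50 components, resolution 4.5 at EHF and 2 earlier), with T-box genes and the reporter left out. A cluster took a name where at least 3 markers were detected and its score led by the margin, unless its leading genes pointed elsewhere. That exception left EHF cluster 17 (best score Exe mesoderm, 2.62, then mesenchyme, 1.92) unnamed. It also left MS-LS cluster 12 unnamed (best score nascent mesoderm, 1.31, then presomitic mesoderm, 1.04). Both had enough markers and margin for a name. Where stated, the authors' cell names, matched by barcode in 2317 MS-LS and 584 OB-EB cells, were used instead. UMIs were summed per class and given as CPM, with exact Poisson intervals, and ratios carry exact intervals conditional on their sum. Shares carry Clopper-Pearson intervals. A count of 0 was set to a floor of 3 UMIs for bounds. Intervals cover counting error only, and no test between groups was made. Scrublet (scanpy 1.11.5) marked 6, 0 and 13 cells by its own threshold and so had not worked, and leaving out the highest 5% of scores was an alternative. Each cell was thinned to 1500 UMIs to compare shares, which left out 101, 406 and 165 cells. Named genes were the members, the list genes and the 3 genes most like each member. Scripts were tested on simulated counts. Promoters of Tbx2, Tbx3 and Tbx5 were not analysed here.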

Additional observations from a re-analysis of the deposited data

Results flagged for a closer look

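Signal appeared in rows outside the main measurement. Antisense neighbours of Tbx3 held a few UMIs, with 6 UMIs of Tbx3os2 at MS-LS (4 of them in visceral and Exe endoderm-like cells), 7 UMIs of Tbx3os1 at OB-EB and 5 UMIs of Tbx3os2 at EHF. Each exceeds the 3 UMIs that a count of 0 allows. The tdTomato reporter held 81 UMIs in 75 cells at MS-LS (2.06% of cells) and 136 UMIs in 132 cells at OB-EB (3.30%). Of Tbx6 cells, 1 of 37 at MS-LS (2.70%) and 3 of 68 at OB-EB (4.41%) had a reporter UMI. The paper reports that few tdTomato reads were recovered at these stages, and that labelled cells could not be identified from them. Depth and the time from tamoxifen to dissection differed between these libraries, so the shares are not a comparison of stages.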

How the results depend on the processing

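Of the alternatives to the ratios between stages, 112 values stayed within counting error of the reported ones, 10 moved and 1 reversed. Of the class ratios 65 stayed and 4 moved, and of the levels in a class 15 stayed and 1 moved. The alternatives were cells of at least 2000 UMIs, a limit on mitochondrial share, cells without the 5% highest doublet scores, CPM without mitochondrial, ribosomal and globin genes, a median-of-ratios scaling, classes named as mesoderm, thinned cells, clustering at resolutions 2 and 8 or by Leiden, and no naming margin, the last chosen after seeing the data.

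Within classes named as mesoderm, which leave out unnamed mesodermal clusters, the Tbx6 log2 ratio of OB-EB over MS-LS was -0.21, the value that reversed. There Tbx6 was 2.80 for EHF over OB-EB and 2.59 for EHF over MS-LS, Tbx20 was 1.52 (OB-EB over MS-LS), -1.23 (EHF over OB-EB) and 0.29 (EHF over MS-LS), Tbx3 was -1.01 (EHF over OB-EB) and -1.38 (EHF over MS-LS), and Tbx2 was -0.72 (EHF over MS-LS). Tbx20 was -0.54 for EHF over OB-EB under median-of-ratios scaling, and Tbx2 was -1.61 for OB-EB over MS-LS in thinned cells. The class ratio of Tbx1 was 4.13 at resolution 8 and 3.55 under Leiden, and that of Tbx6 was 3.31 and 3.07. At resolution 2 the Tbx1 class took no name and gave no value. The Tbx3 level of nascent mesoderm at MS-LS was 25.1 CPM with the authors' names. The cause of these shifts was not tested.

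Of 34 shares of cells, 13 stayed and 21 moved with depth. Unthinned, the shares at MS-LS, OB-EB and EHF were 7.70%, 4.36% and 6.93% for Tbx3, 1.02%, 1.70% and 8.73% for Tbx6 and 3.58%, 4.83% and 6.98% for Tbx20. At EHF they were 1.63% for Tbx1, 0.487% for Tbx2, 0.2003% for Tbx4 and 0.572% for Tbx5. Thinned to 2000 UMIs, Tbx3 was at 3.53%, 2.72% and 2.54%, Tbx6 at 4.46% at EHF, Tbx20 at 1.56% (MS-LS) and 3.37% (OB-EB), Tbx2 at 0.0588% at MS-LS and Tbx1 at 0 at OB-EB. Without either EHF table every value was as reported, since both hold the same counts. No paired analysis was possible because each stage was 1 library. Tbx1, Tbx2, Tbx4 and Tbx5 were limited by depth.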
